A study of Mus musculus with 6 samples.

Results

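Between the ribosomal protein gene Rpl29 and the histone methyltransferase gene Setd2 on mouse chromosome 9, 60 named genes were followed in the RNA-seq of renal tubular cells, out of 46095 genes listed in the counts. They were chosen by name and by their place on the chromosome, after Rpl29 had been seen to differ between the labels in these same libraries, and for differences that may travel with the Setd2 allele. The values of the comparison below are therefore a description of these genes and not a test of the region. The cells were primary tubular epithelial cells (PTECs) freshly isolated from 10-week-old mice. The 3 mice labelled VHL-KO (replicates 1, 2 and 4) carried Ksp-Cre and VHL fl/fl, and the 3 labelled VHL-KO;SETD2-KO (replicates 2, 3 and 4) carried Setd2 fl/fl as well. All 6 mice thus carried the Cre transgene and the floxed VHL allele, and no mouse without them was part of the comparison. Ksp-Cre uses the promoter of cadherin 16 and acts in tubular epithelium, so cells outside the tubule keep both genes.

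SETD2 places trimethylation on lysine 36 of histone H3 along transcribed genes. Genes that lie close together on a chromosome are inherited together, and when a modified allele is bred into a line its neighbours come with it. The stretch next to mouse Setd2 corresponds to part of the short arm of human chromosome 3, which is often lost in clear cell renal carcinoma and also holds VHL, SETD2 and tumour suppressor candidates such as RASSF1. Its genes have no common function. They range from Gpx1, which reduces peroxides with glutathione, and Acy1, which deacetylates N-acetyl amino acids in the kidney, to the small GTPase Rhoa and the splicing regulators Rbm5 and Rbm6.

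In GRCm38, the build named in the submitters' processing notes, RefSeq placed all 60 genes on chromosome 9. Rpl29 spans chr9:106428889-106431568 and Setd2 spans chr9:110532500-110618633, and 59 of the 60 genes lie in the 4.1 Mb between them. Nradd lies on the other side of Setd2, 2501 bases beyond its end. Acy1 is the member nearest to Rpl29, 1412 bases away, and Kif9 is the nearest to Setd2 within the interval, 7325 bases away. RefSeq lists 176 genes between Rpl29 and Setd2, of which 151 were in the counts, so that 92 of the listed genes there were not among the members. Of the members, 10 overlap another listed gene, such as Nprl2 with Cyb561d2, Hyal1 with Hyal3, and Dalrd3 with Wdr6. Whether counting used strand is not given in the sources used here, so reads of overlapping genes on opposite strands may have been exchanged and those genes are uncertain.

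The ends of the interval behaved differently from each other. Rpl29, a protein of the large ribosomal subunit, was counted 709, 502 and 1129 times under VHL-KO (replicates 1, 2 and 4, the order used throughout) against 24, 7 and 17 times under VHL-KO;SETD2-KO (replicates 2, 3 and 4). The labels did not overlap, and the lowest VHL-KO library was 33.7 times the highest VHL-KO;SETD2-KO library after normalization. The log2 fold change of Rpl29 was -6.16 ± 0.69 (SE, n = 3 per label) in the edgeR fit, and -5.62 without VHL-KO replicate 4, given as a description since Rpl29 was chosen on these values. Gm6344, a retrocopy of Rpl29 on another chromosome, had 384, 261 and 522 counts against 2, 2 and 1 counts. Summed over libraries its level was 322.6 times higher under VHL-KO, with an exact 95% interval of 137.8 to 995.4 that covers counting error only. It was the only one of the 14611 tested genes with an adjusted p under 0.05 in the edgeR test (adjusted p = 0.0147). Gm6344 can share reads with Rpl29, which was chosen on these values, and it passed the filter on low counts through VHL-KO alone. Its p is therefore a description and gives no separate support. Gm8210, a second retrocopy, had 25, 17 and 39 counts against 65, 27 and 47, and its labels overlapped.

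Gm6344 and Gm8210 each match 480 of the 483 bases of the Rpl29 coding sequence (99.4%), and reads from one copy can be counted on another. The stretch of Rpl29 and Gm6344 shown here, coding bases 335 to 454 in GENCODE transcripts, was chosen because it holds 2 of the 3 differences between them, which are in capitals.
Rpl29: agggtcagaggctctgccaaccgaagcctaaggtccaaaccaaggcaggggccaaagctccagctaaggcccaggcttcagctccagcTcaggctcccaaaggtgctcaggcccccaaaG
Gm6344: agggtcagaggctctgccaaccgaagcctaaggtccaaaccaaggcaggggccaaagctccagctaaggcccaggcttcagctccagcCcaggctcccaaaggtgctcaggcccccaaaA
All other bases of this stretch are shared, so a read that lies wholly within it must cover a capital to be told apart.

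Setd2, the gene that the label says was deleted, was counted 1179, 799 and 132 times under the VHL-KO label against 1499, 1019 and 1429 times under VHL-KO;SETD2-KO. Its level was 52.5 ± 34.8 CPM (counts scaled to the normalized library size, SD, n = 3) and 75.4 ± 16.5 CPM, with overlapping labels. The log2 fold change of Setd2 was 0.52 ± 0.64 (SE, edgeR adjusted p = 0.787), and 0.05 ± 0.21 without VHL-KO replicate 4. Whole-gene counts do not show whether the floxed exons were lost, and the Setd2 level did not check the label. For mice of this model, the paper reports less SETD2 and less of its histone mark in the tubules, by Western blotting, immunohistochemistry and RT-qPCR. Whether the mice of these libraries were among them is not given. Genotypes are therefore given below as the labels of the libraries. Vhl had 139 to 276 counts under VHL-KO and 189 to 317 under VHL-KO;SETD2-KO.

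**Figure D1:**
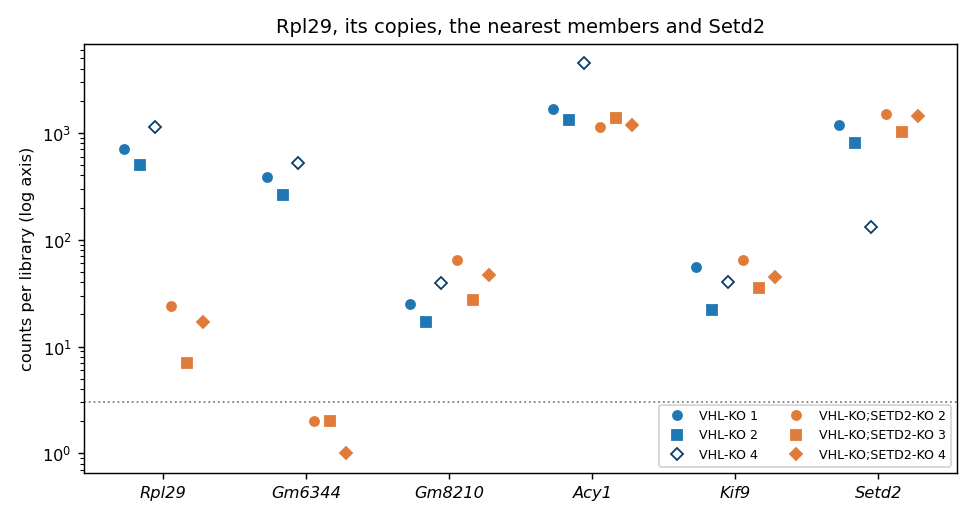
Counts per library on a log axis for Rpl29, its retrocopies Gm6344 and Gm8210, the nearest members Acy1 and Kif9, and Setd2. Each point is one library, blue for VHL-KO (replicate 4 open) and orange for VHL-KO;SETD2-KO, and the dotted line marks 3 counts. In these raw counts Rpl29 and Gm6344 separate the labels widely, while Gm8210, Acy1, Kif9 and Setd2 overlap.

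The members' own levels spanned a wide range. Per kilobase of exon, Gpx1 had the highest mean level over the 6 libraries, 1256 CPM per kb, followed by Gnai2 with 61.7, Acy1 with 47.9, Apeh with 46.2 and Rhoa with 44.4 CPM per kb. Of the 60 members, 56 passed the filter on low counts. The other 4 were Cspg5, a neural chondroitin sulphate proteoglycan, Nckipsd, an adaptor of actin assembly, Mst1, a liver-made growth factor, and Traip, a ubiquitin ligase of DNA repair. Mst1 had 4, 0 and 0 counts under VHL-KO and 1, 1 and 0 under VHL-KO;SETD2-KO. Cspg5 had 38 counts in VHL-KO replicate 4 and 1 to 7 in each other library. Nckipsd had 1 to 7 counts and Traip 3 to 9 counts per library.

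One library stood apart before any comparison of labels. Spearman's correlation of the members' levels between libraries was 0.779 to 0.838 for the 5 pairs with VHL-KO replicate 4 and 0.935 to 0.990 for the 10 pairs without it, and over all genes it was 0.717 to 0.765 and 0.937 to 0.986. The members took 0.968% of the counts of VHL-KO replicate 4 and 0.361% to 0.413% of the counts of each other library. This library was the highest of the 6 for 43 of the 56 tested members and the lowest for 6. Totals were 11168552 to 17883466 counts per library, and mitochondrial genes held 11.3% of counts in VHL-KO replicate 4 and 25.9% to 36.4% in the others. The summaries and the fold changes of most named members are therefore given with and without VHL-KO replicate 4.

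Over all 6 libraries, the members leaned to lower levels under VHL-KO;SETD2-KO. Mean levels were lower for 41 and higher for 15 of the 56 tested members, and the median log2 fold change was -0.55 (range -1.81 to 0.62), against 0.01 over all 14611 genes and -0.02 over chromosome 9. The levels of 17 members were lower without overlap between the labels (30.4%, against 11% of all tested genes), and those of 2 members were higher without overlap (3.57%, against 9.62%). At an unadjusted p under 0.05 with a fold change of at least 1.5, edgeR called 10 members lower (4.68% of all genes) and 0 higher (2.66% of all genes). No member had an adjusted p under 0.05, the lowest being 0.625, and 1 gene of all those tested (0.00684%) passed in the lower direction and 0 (0%) in the higher. DESeq2 gave an adjusted p for 9 of the 56 members, none of them under 0.05, and none for the other 47, so most members could not be called by it (1292 of all 14611 genes had one, and 0.342% of all genes were called lower and 0.00684% higher). At an unadjusted p, DESeq2 called 11 members lower (7.75% of all genes) and 0 higher (2.86% of all genes).

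Without VHL-KO replicate 4 the lean of the members' median was not seen, though more members were lower than higher without overlap. The median log2 fold change was -0.01, against 0.03 over all genes, and 18 of the 56 members turned direction. The labels then did not overlap for 18 of the 56 members in the lower direction (21.4% of all genes) and 9 of the 56 in the higher direction (20.1% of all genes). Of the 19 members without overlap in 6 libraries, 18 were also without overlap here, and the exception was Cdc25a, a phosphatase that drives the cell cycle. The edgeR test called 9 members lower and 5 higher at an unadjusted p under 0.05 (7.15% and 8.29% of all genes) and 0 at an adjusted p (0.00667% of all genes lower, 0% higher), the lowest being 0.105. DESeq2 without this library, an alternative chosen after the data were seen, called 7 members lower and 2 higher at an adjusted p under 0.05 (4.69% and 3.56% of all genes), and 9 lower and 6 higher at an unadjusted p (7.29% and 9.5% of all genes). The 7 were Gpx1, Apeh, Amt, Rnf123, Slc38a3, Ifrd2 and Acy1, and the 2 were Map4, a microtubule-associated protein, and Plxnb1, a semaphorin receptor. Limma-voom with sample quality weights on all 6 libraries, also chosen after the data were seen, called 8 members lower and 7 higher at an adjusted p under 0.05 (8.25% and 9.94% of all genes), and 10 lower and 8 higher at an unadjusted p (10.5% and 14.5% of all genes).

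**Figure D2:**
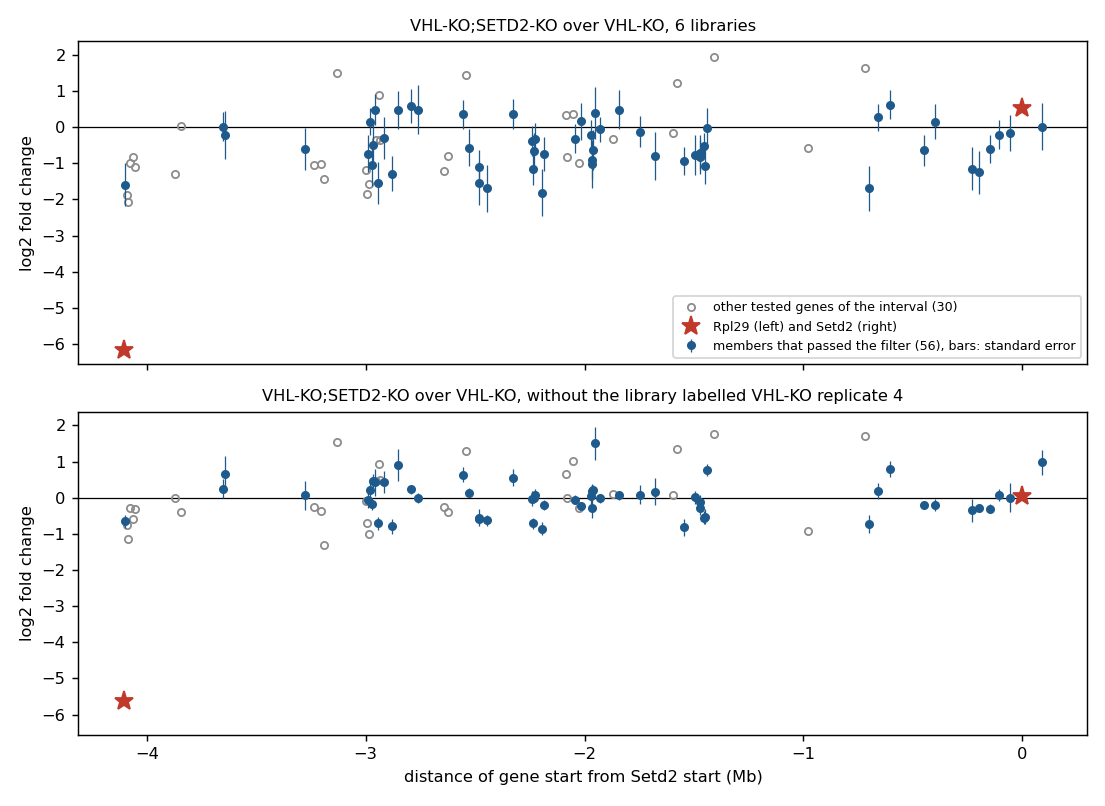
Log2 fold change (VHL-KO;SETD2-KO over VHL-KO) against the distance of the gene's start from the start of Setd2 in Mb, for 6 libraries (top) and without VHL-KO replicate 4 (bottom). Filled points are the 56 tested members with standard errors, open points are 30 other tested genes of the interval, and stars are Rpl29 and Setd2. Members sit between -1.81 and 0.62 in the top panel with a median of -0.55, and around 0 in the bottom panel with a median of -0.01.

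By position, the median log2 fold change was -0.64 for the 19 members nearest to Setd2, -0.35 for the 18 in the middle and -0.49 for the 19 nearest to Rpl29. Without VHL-KO replicate 4 these medians were -0.20, -0.01 and 0.14. In 6 libraries the 60 tested genes beyond Setd2 had a median of -0.03 and the 60 beyond Rpl29 a median of 0.08. Without VHL-KO replicate 4 these flanking medians were -0.05 and -0.04. No difference between these stretches was tested. Among the members nearest to Setd2, Nradd, a death-domain receptor relative, had 1.57, 1.29 and 5.60 CPM under VHL-KO and 3.23, 2.47 and 2.82 CPM under VHL-KO;SETD2-KO. Its labels overlapped only through VHL-KO replicate 4. Kif9, a kinesin motor, had 3.39, 2.03 and 3.73 CPM against 3.45, 1.97 and 2.82 CPM, with overlapping labels. Klhl18, a substrate adaptor of a cullin ubiquitin ligase, had a log2 fold change of -0.20 ± 0.39 (SE), and 0.08 ± 0.17 without VHL-KO replicate 4. The tyrosine phosphatase Ptpn23 had one of -0.60 ± 0.39, and -0.30 ± 0.13 without that library. Ptpn23 was lower without overlap, at 46.0, 39.8 and 72.7 CPM against 33.4, 34.8 and 36.4 CPM. At the other end, 1412 bases from Rpl29, Acy1 was lower without overlap and is described with the enzymes. Its neighbours Rbm15b, which takes part in RNA methylation, Manf, a factor of the endoplasmic reticulum stress response, and the kinase Mapkapk3 all had overlapping labels, with log2 fold changes of 0.01, -0.22 and -0.61. Without VHL-KO replicate 4 these were 0.24, 0.66 and 0.07, so that Manf and Mapkapk3 turned direction. Manf varied most within VHL-KO;SETD2-KO of all tested members, from 30.1 to 92.0 CPM.

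The 15 metabolic enzymes and solute carriers made up the role group with the most members lower without overlap, 8 of 15 (11% of all genes), and 7 of these were called lower at an unadjusted p under 0.05 in edgeR (4.68% of all genes). Without VHL-KO replicate 4, 8 were lower and 3 higher without overlap (21.4% and 20.1% of all genes). Their median log2 fold change was -0.93, and -0.28 without VHL-KO replicate 4. Gpx1, glutathione peroxidase 1, had 1491, 1407 and 5560 CPM under VHL-KO and 758, 875 and 772 CPM under VHL-KO;SETD2-KO. All VHL-KO libraries were above all VHL-KO;SETD2-KO libraries, and replicate 4 was 3.84 times the mean of the other VHL-KO libraries. The log2 fold change of Gpx1 was -1.81 ± 0.64 (SE), and -0.86 ± 0.19 without that library.

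In Acy1, VHL-KO replicate 4 was again the highest library. It had 100.5, 122.4 and 416.2 CPM under VHL-KO and 60.7, 78.2 and 73.6 CPM under VHL-KO;SETD2-KO, a log2 fold change of -1.59 ± 0.61 (SE), and -0.66 ± 0.17 without VHL-KO replicate 4. Slc38a3, a glutamine transporter of the proximal tubule that serves ammonia formation, had 47.4, 56.3 and 115.6 CPM against 23.5, 36.4 and 30.2 CPM. The log2 fold change of Slc38a3 was -1.28 ± 0.47, and -0.79 ± 0.21 without VHL-KO replicate 4. Amt, the aminomethyltransferase of the glycine cleavage system, had 65.2, 59.2 and 130.9 CPM against 32.8, 44.2 and 37.3 CPM. In both genes every VHL-KO library was above every VHL-KO;SETD2-KO library. The log2 fold change of Amt was -1.16 ± 0.45, and -0.71 ± 0.16 without VHL-KO replicate 4.

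Among the less abundant enzymes, Nme6, a nucleoside diphosphate kinase family member, had 5.38, 5.17 and 20.4 CPM under VHL-KO and 3.02, 3.04 and 3.51 CPM under VHL-KO;SETD2-KO. Gmppb, which makes GDP-mannose for glycosylation, had 9.08, 8.40 and 34.6 CPM against 6.63, 6.41 and 4.82 CPM. The log2 fold changes of Nme6 and Gmppb were -1.69 and -1.54, and -0.73 and -0.56 without VHL-KO replicate 4. Pfkfb4, an enzyme that regulates glycolysis, had 7.32, 9.70 and 10.6 CPM against 5.14, 5.003 and 4.32 CPM. In Pfkfb4, VHL-KO replicate 4 was 1.25 times the mean of the other VHL-KO libraries, against 3.86 times in Nme6 and 3.96 times in Gmppb. Its log2 fold change was -0.93 with that library and -0.82 without it. Scap, which escorts the sterol-sensing transcription factors SREBP, had 65.5, 68.3 and 260.9 CPM against 54.1, 55.0 and 56.4 CPM. Its log2 fold change of -1.25 ± 0.60 (SE) became -0.28 ± 0.11 without VHL-KO replicate 4.

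Other members of the group had overlapping labels. Hyal1, a lysosomal hyaluronidase, had 10.5, 16.7 and 11.8 CPM under VHL-KO and 20.6, 10.9 and 23.2 CPM under VHL-KO;SETD2-KO. Slc26a6, an anion exchanger that secretes oxalate, had the lowest level per length of the tested members, 0.456 CPM per kb, and 1.69, 1.48 and 6.25 CPM against 2.12, 1.69 and 1.56 CPM, and its log2 fold change of -0.80 became 0.17 without VHL-KO replicate 4. P4htm, a transmembrane prolyl hydroxylase, had 0.968, 1.39 and 5.32 CPM against 4.67, 2.47 and 2.82 CPM. Only VHL-KO replicate 4 kept the labels of P4htm from separating, and without it the log2 fold change was 1.51, against 0.39 with it.

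Marker genes of cell types were summed in each library. The summed level of the 10 proximal tubule markers was 12310 to 23280 CPM under VHL-KO, highest in replicate 4, and 5688 to 8414 CPM under VHL-KO;SETD2-KO. The labels did not overlap with or without that replicate. All 10 were above 3 counts in at least 1 library, and the same held for the markers of the other 6 cell types. Podocyte markers (6 genes) summed to 1487 to 2124 CPM under VHL-KO and 2038 to 5005 CPM under VHL-KO;SETD2-KO, and endothelial markers (6 genes) to 1015 to 1789 CPM and 1335 to 4242 CPM. The sums for thick limb and distal tubule (6 genes) were 1244 to 4771 CPM and 1576 to 4326 CPM, for collecting duct (6 genes) 50.2 to 436.6 CPM and 70.0 to 199.7 CPM, for stromal cells (6 genes) 49.9 to 411.6 CPM and 51.1 to 145.3 CPM, and for immune cells (8 genes) 158.7 to 677.4 CPM and 137.2 to 358.7 CPM. VHL-KO replicate 4 had the highest sum of all 6 libraries for every list but the podocyte and endothelial ones. The part of cell makeup in the members' levels was not tested, and in bulk RNA fewer cells of a type and less RNA per cell cannot be told apart.

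**Figure D3:**
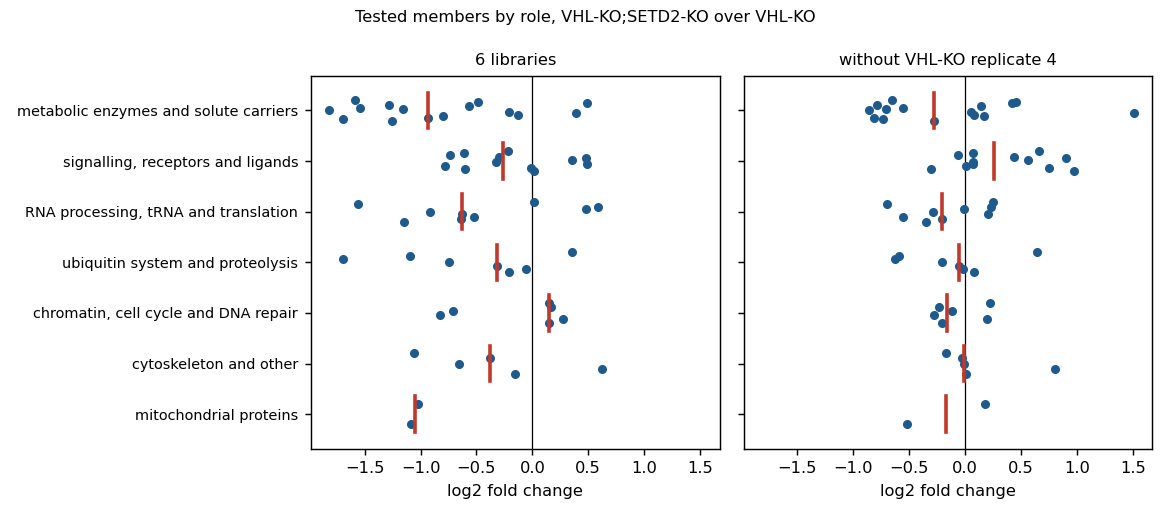
Log2 fold change of each tested member by role group, for 6 libraries (left) and without VHL-KO replicate 4 (right). Each point is one gene and the red bar is the group's median. With 6 libraries the medians of 6 of the 7 groups lie below 0, and that of the metabolic enzymes and solute carriers is -0.93. Without the one library it is -0.28.

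In the ubiquitin system and proteolysis, 7 of 8 members passed the filter, with a median log2 fold change of -0.32, and -0.05 without VHL-KO replicate 4. Apeh, which removes acylated amino acids from the ends of peptides, had 196.1, 184.8 and 816.4 CPM under VHL-KO and 115.5, 131.3 and 123.3 CPM under VHL-KO;SETD2-KO. Its labels did not overlap, and its log2 fold change was -1.69 ± 0.65 (SE), or -0.63 ± 0.14 without that library. Rnf123, a ubiquitin ligase that acts on a cell cycle inhibitor, had 64.4, 63.0 and 144.2 CPM against 38.2, 42.4 and 46.2 CPM, again with no overlap, and a log2 fold change of -1.10, or -0.59 without that library. Gmppb and Rnf123 overlap each other on the chromosome, so their counts are uncertain. Usp4, a deubiquitinase, was lower without overlap by less (log2 fold change -0.75, or -0.20 without that library), while Usp19 and Arih2 had overlapping labels at -0.32 and -0.06. Uba7, the activating enzyme for the ubiquitin-like protein ISG15, had a higher mean under VHL-KO;SETD2-KO, with a log2 fold change of 0.35 and overlapping labels, and was higher without overlap (0.64) when VHL-KO replicate 4 was left out.

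Among the 9 genes of RNA processing, tRNA modification and translation the median log2 fold change was -0.63, and -0.20 without VHL-KO replicate 4. Ifrd2, which binds inactive ribosomes, had 54.0, 46.6 and 173.2 CPM under VHL-KO and 25.2, 33.0 and 34.9 CPM under VHL-KO;SETD2-KO, with no overlap, and a log2 fold change of -1.56, or -0.70 without that library. Rbm5 had the reverse order, with 67.9, 68.5 and 23.8 CPM against 79.8, 79.7 and 81.5 CPM. Its labels did not overlap in either case, and VHL-KO replicate 4 was its lowest library, so that the log2 fold change was 0.59 with that library and 0.23 without it. Its neighbour Rbm6 had 48.1, 51.6 and 6.63 CPM against 49.3, 45.0 and 54.2 CPM, and its log2 fold change of 0.48 became -0.01. The helicase Dhx30 was lower without overlap, at -0.64 with VHL-KO replicate 4 and -0.20 without it.

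Tma7, a small protein linked to translation, and Ccdc51, a subunit of the mitochondrial ATP-sensitive potassium channel, start 115 bases apart on opposite strands. Both were lower without overlap, Tma7 at 30.4, 24.4 and 25.9 CPM against 16.6, 21.7 and 17.8 CPM and Ccdc51 at 8.35, 7.48 and 19.3 CPM against 5.20, 6.02 and 5.38 CPM. In Tma7, VHL-KO replicate 4 was 0.947 times the mean of the other VHL-KO libraries, and in Ccdc51 it was 2.44 times. Without that library the log2 fold changes were -0.56 for Tma7 and -0.52 for Ccdc51, against -0.53 and -1.08 with it. The RefSeq sequence between their starts (GRCm38.p6, chr9:109082382-109082495, the strand of Ccdc51) is shown because it lies upstream of both genes, with the 5 CG pairs in capitals.
Tma7-Ccdc51: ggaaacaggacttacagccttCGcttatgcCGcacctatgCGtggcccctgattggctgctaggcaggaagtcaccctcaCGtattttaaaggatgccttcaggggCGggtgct
Of 32851 RefSeq promoters, 81.3% hold at least 1 CG in the 114 bases before the start and 41.1% hold 5 or more (the letters read the same on both strands). The RefSeq spans of Klhl18 and Kif9 adjoin on opposite strands, as do those of Tcta and Rhoa, and all 4 of these genes had overlapping labels. The log2 fold changes of Tcta and Rhoa were -0.66 and -0.33, and -0.01 and 0.07 without VHL-KO replicate 4.

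The 6 genes of chromatin, the cell cycle and DNA repair were the only role group with a median above 0 (0.15), and it was -0.16 without VHL-KO replicate 4. Smarcc1, a core subunit of SWI/SNF chromatin remodelling complexes, had 30.4, 25.6 and 9.71 CPM under VHL-KO and 23.4, 27.4 and 22.3 CPM under VHL-KO;SETD2-KO, with overlapping labels, and its log2 fold change turned from 0.15 to -0.21. Cdc25a was higher without overlap by a small margin, 8.05, 7.57 and 6.63 CPM against 8.06, 10.7 and 8.20 CPM. Atrip, a partner of the checkpoint kinase ATR, was lower without overlap at -0.82 with that library and -0.28 without it, and the exonuclease Trex1 overlapped. The tumour suppressor candidate Rassf1 had 24.6, 31.0 and 32.2 CPM against 38.5, 23.3 and 35.9 CPM, also overlapping.

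Of 15 signalling proteins, receptors and ligands, 12 were tested, and their median log2 fold change turned from -0.26 to 0.26 when VHL-KO replicate 4 was left out. The labels of Rhoa overlapped, at 282.5, 277.5 and 549.9 CPM against 328.0, 265.4 and 292.2 CPM. Gnai2, an inhibitory G protein alpha subunit, had 146.3, 161.1 and 464.8 CPM against 277.8, 137.6 and 211.5 CPM, and its log2 fold change turned from -0.30 to 0.44 without VHL-KO replicate 4. Dag1, the dystroglycan that ties the cell to laminin, had 149.5, 148.8 and 218.2 CPM against 257.4, 166.1 and 237.1 CPM, and its labels were separated only without VHL-KO replicate 4. Plxnb1 and Sema3f had log2 fold changes of -0.01 and 0.48 with that library and 0.75 and 0.90 without it. VHL-KO;SETD2-KO replicate 3 was the lowest library of its label for Rhoa, Gnai2, Dag1 and Sema3f. In the group of cytoskeletal and other proteins (5 tested, median -0.38), Map4 had 101.7, 117.8 and 155.5 CPM against 230.4, 149.8 and 195.9 CPM, with overlap between VHL-KO replicate 4 and VHL-KO;SETD2-KO replicate 3 alone. Besides Ccdc51, the mitochondrial group held only Ndufaf3, an assembly factor of respiratory complex I, with overlapping labels and a log2 fold change of -1.02, or 0.18 without VHL-KO replicate 4.

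**Figure D4:**
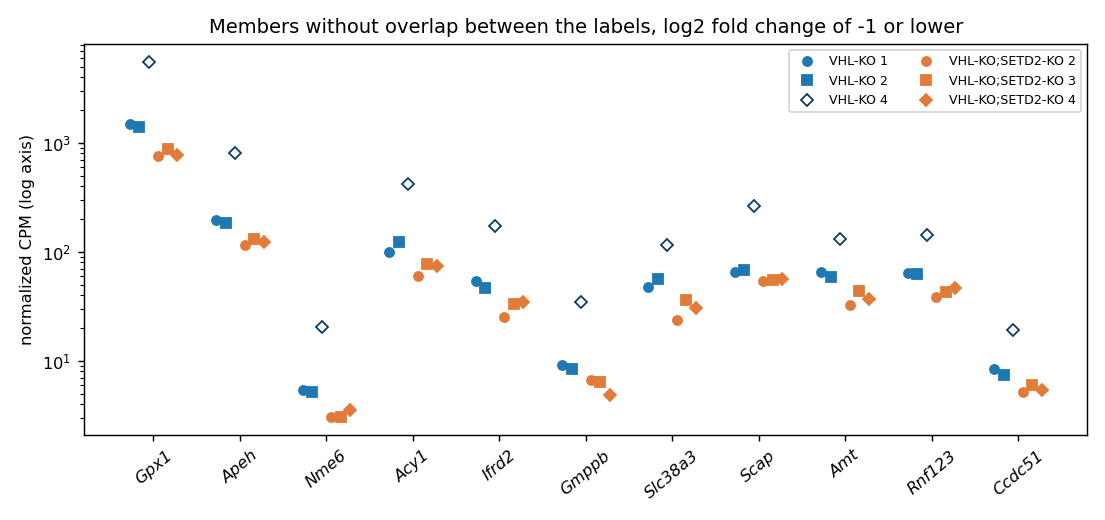
Normalized CPM on a log axis in each library for the 11 members that were lower without overlap and had a log2 fold change of -1 or below. Blue is VHL-KO (replicate 4 open) and orange is VHL-KO;SETD2-KO. In each gene VHL-KO replicate 4 is far above the rest, and replicates 1 and 2 still lie above all 3 VHL-KO;SETD2-KO libraries.

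VHL-KO replicate 4 was more than 2 times the mean of VHL-KO replicates 1 and 2 for 33 of the 56 tested members, and under 0.5 times for 5: Rbm6 (0.133 times), Prkar2a (0.250), Qrich1 (0.284), Smarcc1 (0.347) and Rbm5 (0.349). Prkar2a, a regulatory subunit of protein kinase A, had 48.0, 52.1 and 12.5 CPM under VHL-KO and 50.3, 52.6 and 54.7 CPM under VHL-KO;SETD2-KO. The median coefficient of variation of the members was 56.1% within VHL-KO and 12.6% within VHL-KO;SETD2-KO. The ratio of replicate 4 moved with base composition. Its Spearman correlation with the GC content of the annotated transcripts was 0.579, and with exon length -0.493, over 56 members, while over all 13811 genes with values it was 0.733 and -0.37. The points share libraries and depth, so no p is given. For the ratio of VHL-KO replicate 1 to replicate 2 the correlations over the members were -0.177 and -0.187.

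The median ratio of replicate 4 was 1.02 for the 14 members lowest in GC, 2.25 and 3.04 for the next 14 and 14, and 3.24 for the 14 highest. The members were richer in GC than most genes, with a median of 54.7% against 50.7% over all genes with at least 60 counts. The log2 fold change between the labels correlated with GC at -0.328 (Spearman, 56 members) with all libraries and at 0.019 without VHL-KO replicate 4. The part of base composition in the members' fold changes was not tested. The following coding stretches are shown to let the contrast be seen, chosen after the values were known: a pair of members far above in VHL-KO replicate 4 (Gpx1 and Apeh) and the pair furthest below (Rbm6 and Prkar2a). Each is the first run of 120 bases in the GENCODE coding sequence whose GC content is nearest to that of the whole, with G and C in capitals.
Gpx1: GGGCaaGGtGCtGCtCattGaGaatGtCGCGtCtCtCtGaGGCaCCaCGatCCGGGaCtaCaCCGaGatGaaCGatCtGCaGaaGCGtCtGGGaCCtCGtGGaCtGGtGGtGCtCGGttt
Apeh: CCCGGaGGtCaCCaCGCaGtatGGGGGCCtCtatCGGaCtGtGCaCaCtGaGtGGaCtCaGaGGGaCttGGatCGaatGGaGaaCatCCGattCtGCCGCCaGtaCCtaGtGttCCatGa
Rbm6: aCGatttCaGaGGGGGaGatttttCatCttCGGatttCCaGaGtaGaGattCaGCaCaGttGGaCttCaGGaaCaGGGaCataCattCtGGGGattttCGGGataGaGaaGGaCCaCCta
Prkar2a: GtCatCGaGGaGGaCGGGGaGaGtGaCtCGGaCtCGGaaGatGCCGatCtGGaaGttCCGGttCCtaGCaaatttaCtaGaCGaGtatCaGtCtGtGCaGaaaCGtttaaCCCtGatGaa
The stretches hold 70, 68, 55 and 60 G or C bases in this order, and the whole coding sequences have a GC content of 58.6%, 56.7%, 45.7% and 49.6%.

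**Figure D5:**
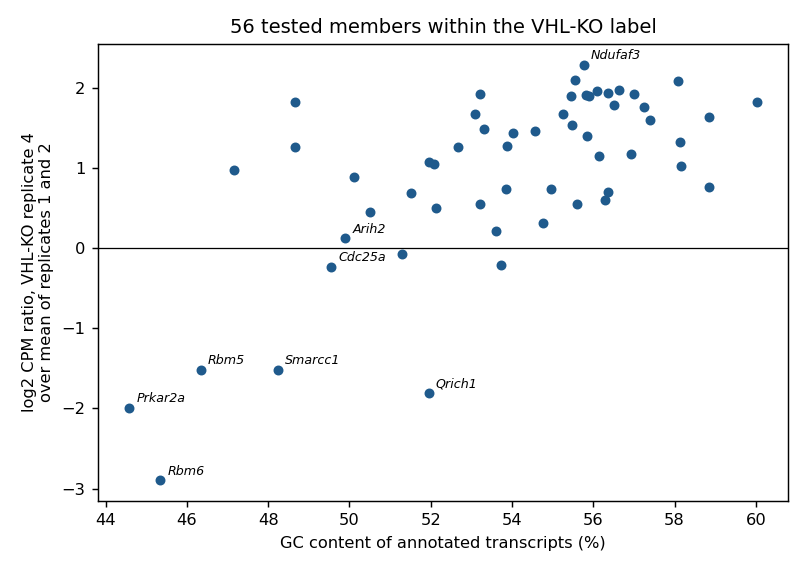
Log2 ratio of the normalized CPM in VHL-KO replicate 4 to the mean of VHL-KO replicates 1 and 2 against the GC content of the annotated transcripts, one point for each of the 56 tested members. Rbm6 and Prkar2a, the lowest in GC, lie furthest below 0, while others low in GC, such as Manf and Usp4, lie above 0. The 14 members lowest in GC have a median of 0.024, and most members above 54% GC lie above 1.

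The other genes of the interval leaned the same way. Of the 92 genes between Rpl29 and Setd2 that were not members, 30 were tested and their median log2 fold change was -0.80, and -0.17 without VHL-KO replicate 4. The labels did not overlap for 8 in the lower direction (26.7%) and 4 in the higher (13.3%), against 11% and 9.62% of all genes. Without VHL-KO replicate 4 these were 10 and 8 genes, against 21.4% and 20.1% of all genes. Of the genes without overlap in 6 libraries, Abhd14b, Pcbp4, Rrp9, Cyb561d2, Zmynd10 and Mon1a were lower by a log2 fold change past 1 in size. Cacna2d2, Cdhr4, Gm39423 and Spink8 were higher by one past 1. Without VHL-KO replicate 4 the log2 fold changes were -0.27 for Pcbp4, -0.32 for Rrp9, -0.70 for Cyb561d2, -1.01 for Zmynd10 and -0.25 for Mon1a. For Cdhr4, Gm39423 and Spink8 they were 1.29, 1.76 and 1.70. Cdhr4 had 4, 7 and 3 counts against 24, 16 and 15, and Gm39423 had 1, 7 and 2 counts against 22, 13 and 22. Both passed the filter on low counts only through VHL-KO;SETD2-KO, where they were high, so their place among the higher genes is uncertain. Abhd14b, a hydrolase gene close to Acy1, had 147.4, 150.8 and 553.3 CPM under VHL-KO and 61.9, 76.1 and 66.6 CPM under VHL-KO;SETD2-KO, a log2 fold change of -2.06, and -1.13 without that library. Cacna2d2, an auxiliary subunit of calcium channels, had 6.84, 5.26 and 6.72 CPM against 18.9, 12.9 and 21.4 CPM. Its log2 fold change was 1.499 with VHL-KO replicate 4 and 1.54 without it.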

How the data were processed

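RNA-seq was analysed for PTECs of 6 mice, with 3 libraries under each label, VHL-KO or VHL-KO;SETD2-KO, as the sample titles give them. The authors deposited raw counts of reads per gene symbol, without normalization. The submitters' processing notes name HISAT2 2.0.4 and GRCm38, while the counting program, the annotation and the use of strand are not given in the sources used here. No column was left unused. Depth was 11168552 to 17883466 counts per library, and 3 counts, the floor for detection, corresponded to 0.168 to 0.269 CPM. Intervals and floors cover counting error only.

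From these counts, TMM library sizes and the quasi-likelihood test of edgeR 4.0.16 (R 4.3.3) were computed over 14611 of 46095 genes that passed filterByExpr, with the label as the only factor and Benjamini-Hochberg adjustment over all of them. A gene was called where p was under 0.05 and its levels differed by 1.5-fold or more. Fold changes are unshrunken and are VHL-KO;SETD2-KO over VHL-KO, the SE is from the edgeR statistic, and CPM uses the TMM library sizes. A label is without overlap when all 3 of its libraries lie above or below the other 3. The study gives 3 mice per group, so each library was taken as a separate mouse. On that reading, p-values measure spread between mice. DESeq2 1.42.0 and limma 3.58.1 were alternatives, with RLE library sizes, other filters, library sizes without the 20 highest genes, a fold change of 2, the replicate number as a block and leaving out each library. DESeq2 without VHL-KO replicate 4 and limma-voom with sample quality weights were added after the data were seen. Fits were tested on simulated data.

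The members and all gene lists were chosen with earlier results of these data known. Members named with values are those without overlap and with a log2 fold change of at least 1 in size, and the 4 nearest to each end. Those that did not pass the filter are named too. A further 10 were listed for a part in kidney tubule transport or metabolism: Acy1, Slc26a6, Slc38a3, Gpx1, Amt, Pfkfb4, Hyal1, Rhoa, Gnai2 and Dag1. Values of other members were added after they were seen. Positions and promoters are from RefSeq (GRCm38.p6, 54 of 60 members matched in the promoter table), and coding sequences, exon lengths and GC content are from GENCODE transcripts.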

Additional observations from a re-analysis of the deposited data

How the results depend on the processing

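Members called at an unadjusted p in the lower direction numbered 10, against 5 under limma-voom and 0 with the replicate block, and 0 to 12 when single libraries were left out (1 without VHL-KO;SETD2-KO replicate 3, 0 without replicate 2 or 4 of that label). In the higher direction they numbered 0, and 0 to 5 when single libraries were left out, the 5 arising without VHL-KO replicate 4. Members higher without overlap numbered 2, against 1 under RLE library sizes and under DESeq2, and 2 to 9 when single libraries were left out, with 9 without VHL-KO replicate 4 and 7 without VHL-KO;SETD2-KO replicate 3. The members' median log2 fold change ran from -0.731 to -0.012 when single libraries were left out, with -0.012 only without VHL-KO replicate 4. In the alternatives added after the data were seen, limma-voom with sample quality weights called 7 members higher and 8 lower at an adjusted p (9.94% and 8.25% of all genes) and 8 higher at an unadjusted p (14.5% of all genes), and DESeq2 without VHL-KO replicate 4 called 2 higher and 7 lower at an adjusted p and 6 higher at an unadjusted p (9.5% of all genes). The replicate block gave -0.62 for the members' median, 1.48 for Setd2 and -5.90 for Rpl29. Replicate numbers 2 and 4 occur under both labels, but same-numbered libraries deviated together with a correlation of 0.16 and -0.32, so the numbers were not taken as pairs. The median over all genes moved to 0.13 under limma-voom and 0.11 with the block. Of the values of named members under the alternatives, 301 stayed within the spread between replicates and 11 moved beyond it, all of them without VHL-KO replicate 4. Of those called, 0 turned direction. Among all named members that were tested, 7 turned direction without VHL-KO replicate 4 and 0 to 3 under each other alternative. Setd2 kept its direction in every alternative, but its log2 fold change was only 0.05 without VHL-KO replicate 4. It stayed above an adjusted p of 0.05 in each alternative that gave one, which DESeq2 on all 6 libraries did not. Rpl29, given as a description, kept its direction in every alternative that gave a value, and had none where at least 10 counts were required in every library. Its adjusted p differed widely between the alternatives and is not read as a test, since Rpl29 was chosen on these values. The cause of these changes was not tested. At these depths 4 members had too few counts for a test.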
